A study of Mus musculus with 35 samples.

Results

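Endothelial cells (EC) of the mouse embryo were compared between embryonic days E8.5 and E9.5 by ATAC-seq. These are 8 of the 35 libraries of the series, 4 labelled E8.5 EC and 4 labelled E9.5 EC, taken by population and day, and all peaks of the deposited table were used. The series follows the passage of aortic endothelium to blood cells, and the comparison asks how open chromatin of its endothelium changes over a day. ATAC-seq inserts sequencing adapters into open chromatin with a transposase, so the read count of a peak rises with its accessibility. Each library came from a pool of 1500 cells sorted from a 23GFP transgenic line, a genotype that all groups used here share. The tissue label of the E8.5 libraries is E8.5 PAS+VU, and the tissue label of the E9.5 libraries also reads E8.5 PAS+VU, so that the day of the E9.5 libraries rests on their titles. Hemogenic endothelium (HE) of the same line, days and tissue labels, with 4 libraries a day, and 4 libraries of E10.5 EC (tissue label E10.5 AGM+VU) were used for comparison. Sorting markers and the number and sex of the embryos in a pool were not stated in the labels. Replicates are described as biological, but nothing states that litters differed between pools. The p-values below therefore cover only the spread among the deposited libraries.

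Endothelial cells line all blood vessels. In the early embryo they arise from mesoderm, and the receptor KDR, ETS factors such as FLI1 and the hematopoietic factor TAL1 act at that step. As the first vessels form, the cells build junctions (CDH5, CLDN5, PECAM1), respond to flow (KLF2, S1PR1, NOS3) and take arterial or venous identity through NOTCH signalling and NR2F2. Early mesoderm is patterned by factors such as MESP1 and CDX2, and the lateral mesoderm that forms next to the embryonic vessels and heart uses ISL1, HAND1, HAND2, TBX20 and TWIST1. In bulk libraries, a larger share of open cells and a more open state of each cell cannot be told apart.

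Total counts in peaks ranged from 1004036 to 2788837 in the E8.5 EC libraries and from 1170513 to 7283508 in the E9.5 EC libraries. E8.5 EC libraries 1 and 2 were the shallow ones of their day. E9.5 EC libraries 3 and 4 stood apart at a peak on chromosome X with 6470 and 7280 counts, against 964 and 832 in E9.5 EC libraries 1 and 2 and 126 to 572 in the E8.5 EC libraries. Counts were also spread differently over the peaks on the 2 days. When the peaks of each library were ranked by count, the top 10% of them took up 52.2% ± 2.62 (SD, n = 4) of its counts at E8.5. At E9.5 the value was 60.1% ± 0.955 (SD, n = 4). The groups did not overlap, and the exact permutation test (two-sided) gave p = 0.0286, the smallest value that 4 against 4 libraries allow. Results are therefore given below also by peak level, and without the libraries that stand apart.

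Of 67108 tested peaks, 7434 (11.1%) passed an adjusted p of 0.05 in edgeR's quasi-likelihood test between E9.5 EC and E8.5 EC. Accessibility was higher at E9.5 at 4355 peaks (6.49%) and lower at 3079 (4.59%). Of these, 3309 of the higher and 2915 of the lower peaks differed at least 2-fold, and 1275 and 1526 at least 4-fold. The median of the higher peaks went from 10.0 to 30.7 CPM (counts scaled to the size of the library), and the median of the lower peaks from 13.6 to 3.12 CPM. At E10.5 the medians of the same peaks in EC were 27.9 and 4.19 CPM, nearer to E9.5 than to E8.5. The 8 EC libraries did not overlap between days at 3962 of the higher and 2701 of the lower peaks, which are 5.9% and 4.02% of all tested peaks. Over all tested peaks, called or not, the share without overlap was 11.3% with E9.5 above and 9.79% with E9.5 below. The counts changed with the libraries used. The test called 4717 peaks without E8.5 EC library 1, 4700 without E8.5 EC library 2 and 1529 without both (869 higher, 660 lower), and 3166 without E9.5 EC libraries 3 and 4 (2310 higher, 856 lower). In these last 2 fits the matching HE libraries (E8.5 HE 1 and 2, and E9.5 HE 4) were left out as well. The lower count of 3079 also fell to 1634 to 1832 when any 1 of E8.5 EC libraries 1 and 2 and E9.5 EC libraries 1, 2 and 4 was left out, and the higher count to 2897 without E8.5 EC library 2. What part depth or these libraries have in the calls was not tested.

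The split between higher and lower peaks also rests on the scaling. Scaling by total counts in place of TMM (a trimmed mean of ratios between libraries) called 2884 higher and 4793 lower peaks, so that 37.6% of the calls were higher, against 58.6% with TMM. The median log2 fold change over all tested peaks was −0.07 with TMM and −0.30 with total counts. Higher calls were most frequent among peaks of high level. Among the 10% of peaks with the highest mean CPM, 22.5% were higher and 1.92% lower at E9.5, and the median change was 0.42 log2. In the lowest 70%, 2.98% were higher and 4.07% lower, with a median of −0.27. Scaling that follows the level (cyclic loess) left 3789 higher and 2828 lower calls.

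**Figure D1:**
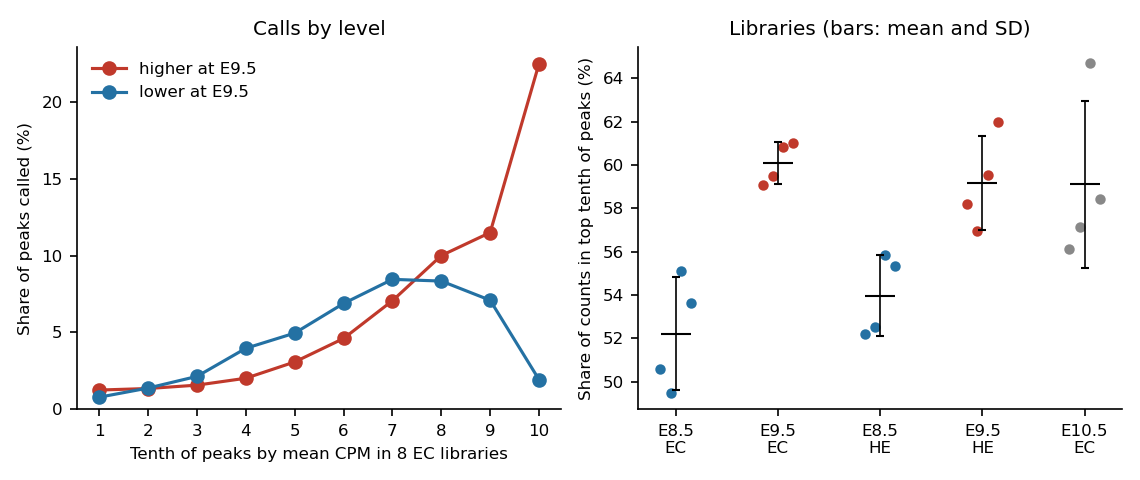
Left: share of tested peaks called higher or lower at E9.5 (%) in each of 10 equal bins of peaks by mean CPM over the 8 EC libraries. Right: share of each library's counts in its top 10% of peaks (%), with points for libraries and bars for the mean and SD; the E9.5 EC libraries lie between 59.09% and 61.01%, above all E8.5 EC libraries (49.49% to 55.12%), and the E9.5 HE libraries lie above the E8.5 HE libraries.

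The windows of listed genes, described below, hold a small part of the 67108 tested peaks. The endothelial windows hold 607 and the mesodermal windows 217. Few of the peaks with the strongest evidence would thus lie in them at the share of all peaks. Among the 10 higher peaks with the smallest adjusted p, folds ranged from 5.74 to 11.5, and 1 lay in the window of a listed gene (Fli1). First came chr10:74826194-74828242, with 13, 12.2, 12.9 and 19.1 CPM at E8.5 and 144, 103, 127 and 132 CPM at E9.5. Its log2 fold change was 3.11 ± 0.26 (edgeR adjusted p = 5.25e-13), and E10.5 EC had 123 ± 32.5 CPM (SD, n = 4). Another peak of the same stretch of chromosome 10, chr10:74913761-74914653, was among the same 10. The peak chr17:84384491-84385937 had 6.49, 6.97, 19.7 and 13.5 CPM at E8.5 and 122, 110, 122 and 141 CPM at E9.5, a log2 fold change of 3.31 ± 0.37 (edgeR adjusted p = 1.59e-08). That the days do not overlap was a condition for picking these 10 peaks and the 10 lower ones.

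Among the 10 lower peaks, folds ranged from 5.81 to 49.6, and none lay in the window of a listed gene. The peak chr8:36165054-36165776 had 42.6, 45.3, 48.5 and 44.3 CPM at E8.5 and 2.48, 1.14, 1.77 and 3.17 CPM at E9.5, a log2 fold change of -4.38 ± 0.47 (edgeR adjusted p = 4.1e-09). Another of the 10, chr8:36166922-36168169, lies beside it. The peak chr2:137697945-137698795 had 56.3, 44.4, 27.3 and 34.7 CPM at E8.5 and 0.31, 0.381, 1.77 and 2.11 CPM at E9.5 (log2 fold change -5.47 ± 0.64, edgeR adjusted p = 1.84e-08). The largest fold of the 10 belonged to chr1:140194397-140195392, whose E9.5 counts came from library 1 alone (1.24, 0, 0 and 0 CPM). The genes next to these peaks are not named here, since no annotation of the mm9 build was used.

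To read the change at genes of known function, 103 genes in 9 lists were placed on mm9 by written start positions, and all peaks centred within 50 kb of a start were taken as that gene's window. A window can hold other genes, and distances are along the chromosome. Around 54 endothelial genes (surface and junction genes, transcription factors, and arterial, venous and Notch genes) 607 of 681 peaks were tested, of which 101 (16.6%) rose and 11 (1.81%) fell, against 6.49% and 4.59% of all tested peaks. Around 31 genes of early and lateral mesoderm 217 of 249 peaks were tested, of which 4 (1.84%) rose and 20 (9.22%) fell. Of the 20, 11 lay in the window of Cdx2. Without that window, left out after its values were seen, 9 of 199 mesodermal peaks fell (4.52%), near the share of all tested peaks. The median log2 fold change was 0.45 in the endothelial and −0.34 in the mesodermal windows, against −0.07 over all tested peaks. At the starts themselves, taking 1 peak a gene (that of smallest p), the start peak rose at 20 and fell at 0 of 50 endothelial genes, and rose at 0 and fell at 4 of 22 mesodermal genes (edgeR, adjusted p under 0.05). The share over the starts of all genes was not available as a background. Start peaks can be broad and high, and such peaks rose more often in general. Of all tested peaks over 2000 bases wide 21.8% rose and 3.91% fell, and of the highest 10% by mean CPM 22.5% and 1.92%. The lists and loci were chosen with earlier results of these data known, and no test was run on a list as a whole.

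**Figure D2:**
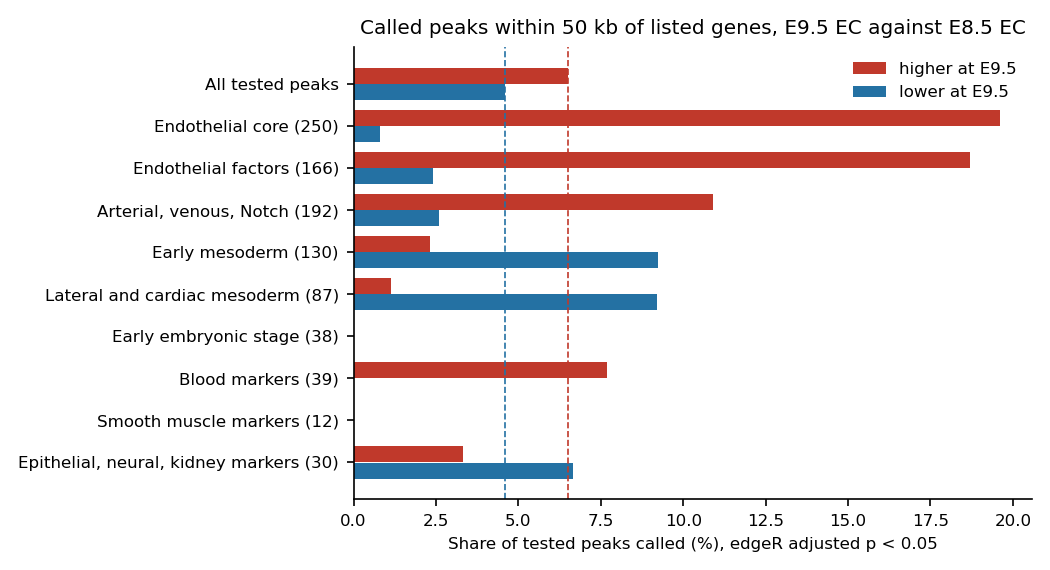
Share of tested peaks called higher (red) or lower (blue) at E9.5 (%) in the windows of each gene list, with the number of tested peaks in brackets and dashed lines at the shares over all tested peaks (6.49% and 4.59%). The 3 endothelial lists exceed the background for higher peaks and the 2 mesoderm lists for lower peaks, the early mesoderm list through the window of Cdx2 (without it 1 of 112 peaks fell, 0.893%).

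Endothelial windows hold more peaks of high level, so the counts were read within levels. Of the endothelial window peaks, 19.4% were in the highest 10% of all tested peaks by CPM. There 55 of 118 rose (46.6%), against 22.5% of all peaks of that level. In the next 20% 27 of 159 rose (against 10.8% of all), and in the lowest 70% 19 of 330 (5.76% against 2.98%). Mesodermal window peaks were mostly low, with 70.5% of them in that lowest range, where 14 of 153 fell (9.15% against 4.07%), and 5 of 137 without the window of Cdx2 (3.65%). At the highest level 3 rose and 2 fell of 19 mesodermal peaks. With cyclic loess scaling the endothelial counts were 82 higher and 14 lower and the mesodermal counts 5 higher and 16 lower, and with total counts 71 and 18, and 3 and 28. Without the shallow E8.5 libraries 15 endothelial peaks were called higher and 3 lower, and 1 mesodermal peak higher and 8 lower. Without E9.5 EC libraries 3 and 4 the counts were 64 and 2, and 3 and 4. The mesodermal count of 20 lower peaks fell to 13 without E9.5 EC library 1 or without library 4.

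Promoters are shown for 6 genes whose start peak changed, 4 that rose (Tie1, Robo4, Dll4, Lyl1) and 2 that fell (Twist1, Tbx20). Each is the 250 bases before the start, 5′ to 3′ on the gene's strand, from RefSeq with the build GRCm38.p6, whose coordinates differ from the mm9 coordinates of the peaks. Capitals mark the hexamers CCGGAA and CAGGAA on both strands, 2 forms of the GGAA core of ETS factor sites. Other stretches with GGAA were not searched and stay in lower case. Tie1 lies at chr4:118489850-118490099 on the minus strand, Robo4 at chr9:37401722-37401971 on the plus strand, Dll4 at chr2:119325534-119325783 on the plus strand, Lyl1 at chr8:84701207-84701456 on the plus strand, Twist1 at chr12:33957421-33957670 on the plus strand and Tbx20 at chr9:24774304-24774553 on the minus strand.
Tie1: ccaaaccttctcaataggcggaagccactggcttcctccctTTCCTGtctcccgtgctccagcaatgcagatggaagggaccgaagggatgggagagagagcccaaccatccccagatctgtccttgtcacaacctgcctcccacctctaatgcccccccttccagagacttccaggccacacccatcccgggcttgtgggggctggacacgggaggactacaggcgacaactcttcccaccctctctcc
Robo4: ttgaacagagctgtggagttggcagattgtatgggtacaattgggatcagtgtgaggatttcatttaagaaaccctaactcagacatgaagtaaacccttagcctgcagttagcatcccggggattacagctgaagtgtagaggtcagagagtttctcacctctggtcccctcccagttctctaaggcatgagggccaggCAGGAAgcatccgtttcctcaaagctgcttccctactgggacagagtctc
Dll4: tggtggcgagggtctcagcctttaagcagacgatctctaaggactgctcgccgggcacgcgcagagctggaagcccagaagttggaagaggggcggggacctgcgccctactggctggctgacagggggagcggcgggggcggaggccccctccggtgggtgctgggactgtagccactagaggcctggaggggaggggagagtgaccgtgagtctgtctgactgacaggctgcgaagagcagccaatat
Lyl1: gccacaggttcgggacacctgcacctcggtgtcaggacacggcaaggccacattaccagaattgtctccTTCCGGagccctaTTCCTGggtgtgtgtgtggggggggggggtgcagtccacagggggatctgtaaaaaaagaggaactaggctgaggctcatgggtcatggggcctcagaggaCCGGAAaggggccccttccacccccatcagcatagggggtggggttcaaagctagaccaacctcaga
Twist1: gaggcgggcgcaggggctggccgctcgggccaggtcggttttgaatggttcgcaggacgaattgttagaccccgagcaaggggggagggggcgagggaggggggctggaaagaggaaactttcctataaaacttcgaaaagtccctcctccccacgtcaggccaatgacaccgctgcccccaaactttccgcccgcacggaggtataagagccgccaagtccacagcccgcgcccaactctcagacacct
Tbx20: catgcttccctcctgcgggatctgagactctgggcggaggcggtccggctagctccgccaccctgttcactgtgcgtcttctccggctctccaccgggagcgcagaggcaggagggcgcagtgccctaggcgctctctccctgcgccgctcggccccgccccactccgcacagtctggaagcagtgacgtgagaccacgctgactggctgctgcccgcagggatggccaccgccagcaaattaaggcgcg

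The promoter table held 14 of the 20 endothelial genes whose start peak rose, and 10 of these (71.4%) had either hexamer in the 250 bases. All 4 mesodermal genes whose start peak fell were in the table, and 0 had one. Of all 32851 promoters in the table, 35.1% had one. Lyl1 had 3 matches, Tie1 and Robo4 1 each, and Dll4, Twist1 and Tbx20 had 0. A match describes the letters of the window and is not a binding site.

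Surface, junction and signalling genes of endothelium gave 49 higher and 2 lower peaks of 250 tested (19.6% and 0.8%, against 6.49% and 4.59% of all tested peaks). At least 1 higher peak was found at 15 of 19 genes. Their windows held 5 to 24 tested peaks, so many windows would hold 1 at the share of all peaks too. Eng encodes endoglin, a co-receptor for TGF-beta and BMP ligands. Its leading peak, the peak of the window with the smallest p, was chr2:32520469-32521185, 18.8 kb from the start. It had 1.44, 0, 0.757 and 0 CPM in the E8.5 libraries and 8.54, 8.2, 9.72 and 3.52 CPM in the E9.5 libraries. This is a peak nearly closed at E8.5 and open in all E9.5 libraries, with a log2 fold change of 3.75 ± 0.66 (edgeR adjusted p = 0.000101) and 18.5 ± 3.08 CPM (SD, n = 4) in E10.5 EC. Vwf encodes von Willebrand factor, the adhesive protein that endothelial cells store and secrete. The peak chr6:125463050-125463555, 33.7 kb from its start, had 2.16, 1.74, 1.51 and 2.13 CPM at E8.5 and 12.1, 17.2, 28.3 and 20.4 CPM at E9.5 (log2 fold change 3.30 ± 0.60, edgeR adjusted p = 0.000146). The 4 other higher peaks of the Vwf window rose as well, with log2 fold changes of 1.32 to 2.20.

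Kdr, the main receptor for vascular endothelial growth factor and a gene already used by the mesodermal precursors of endothelium, had 5 higher and 0 lower peaks of 15. The start peak chr5:76373353-76375503 went from a mean of 36.7 ± 3.94 CPM to 68.2 ± 11.8 CPM (± SD over 4 libraries a day, as for all such means; log2 0.91 ± 0.28, edgeR adjusted p = 0.023). The leading peak chr5:76370371-76371292, 3.2 kb from the start, had 25.3, 15.7, 16.3 and 16.7 CPM at E8.5 and 55.9, 69.6, 62.7 and 57.7 CPM at E9.5. Its change of 1.74 ± 0.38 log2 (edgeR adjusted p = 0.00159) was about the size of that at the other 3, which ranged from 1.31 to 1.77. Flt4 encodes the receptor of lymphatic and venous endothelium. Of 13 tested peaks in its window 1 was called. The start peak, also the highest of the window, had 35.8 ± 8.4 CPM at E8.5 and 39 ± 4.78 CPM at E9.5. It was not called (log2 0.12 ± 0.25, edgeR adjusted p = 0.809). The leading peak of the window, chr11:49440203-49440602, had 0.721, 5.23, 2.27 and 2.84 CPM at E8.5 and 24.8, 30.9, 16.8 and 15.8 CPM at E9.5 (log2 fold change 3.05 ± 0.65, edgeR adjusted p = 0.00102). The mean in E10.5 EC, 9.44 ± 5.85 CPM, was below each of the E9.5 libraries.

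S1pr1, the sphingosine 1-phosphate receptor that stabilises junctions in vessels under flow, had the most higher peaks of any listed gene, 8 of 17 tested. At its broad start peak chr3:115414181-115419575 the E8.5 libraries had 170, 122, 146 and 151 CPM and the E9.5 libraries 291, 297, 250 and 263 CPM. The change was modest but without overlap, 0.90 ± 0.20 log2 (edgeR adjusted p = 0.00146), and with cyclic loess scaling it was not called (edgeR adjusted p = 0.197). Another 3 higher peaks of this window lay 46.2 to 49.9 kb toward higher coordinates, with log2 fold changes of 1.15 to 3.41. The junction genes Cldn5, Cdh5 and Pecam1 had higher peaks, and Esam and Icam2 had none called. Cldn5, the claudin of endothelial tight junctions, rose at its start peak from 65.3 ± 33.7 to 135 ± 6.17 CPM (log2 1.02 ± 0.26, edgeR adjusted p = 0.00709). Cdh5, the VE-cadherin gene, rose at a peak 4.9 kb from the start from 113 ± 23.8 to 237 ± 18.6 CPM (log2 1.07 ± 0.26, edgeR adjusted p = 0.00467). Pecam1, an adhesion molecule of endothelial contacts, rose at a peak 40.5 kb from the start from 13.7 ± 2.02 to 37.7 ± 4.41 CPM (log2 1.43 ± 0.31, edgeR adjusted p = 0.00149). At the 3 genes, as at the S1pr1 start peak, the E8.5 and E9.5 libraries did not overlap. The same held for 91.0% of all peaks called higher.

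Tie1, an orphan receptor partner of TEK, rose at its start peak, whose promoter is printed above, from 47 ± 17 to 110 ± 12.6 CPM (log2 1.19 ± 0.30, edgeR adjusted p = 0.0055). The E8.5 libraries had 37.5, 27.9, 63.6 and 58.8 CPM there, the shallow libraries being the lowest. Robo4, an endothelial guidance receptor, rose at its start peak from 16.1 ± 5.3 to 49.3 ± 8.65 CPM (log2 1.59 ± 0.36, edgeR adjusted p = 0.00193). Emcn, a sialomucin of venous and capillary endothelium, had 5 higher peaks and 1 lower peak of 10, and Egfl7, a secreted endothelial matrix protein, had 5 higher peaks of 16. Plvap, which builds the diaphragms of fenestrae, also had 5 higher peaks, of 24. Its leading peak lost its call without E8.5 EC library 2 (edgeR adjusted p = 0.0579). Nos3, Mmrn2 and Tie1 each had 1 or 2 higher peaks, and a second Tie1 peak, 27.6 kb from the start, fell from 20.2 to 4.84 CPM (log2 −2.18, edgeR adjusted p = 0.0174). Flt1 and Tek, too, had none called in their windows. Without the shallow E8.5 libraries the leading peaks of Kdr, Flt4, Eng, Vwf and S1pr1 were still called (edgeR adjusted p of 0.0302, 0.0306, 0.00351, 0.00749 and 0.0489), and those of Tie1, Cdh5, Pecam1, Cldn5, Emcn, Robo4, Egfl7, Plvap, Nos3 and Mmrn2 were not (0.053 to 0.337).

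**Figure D3:**
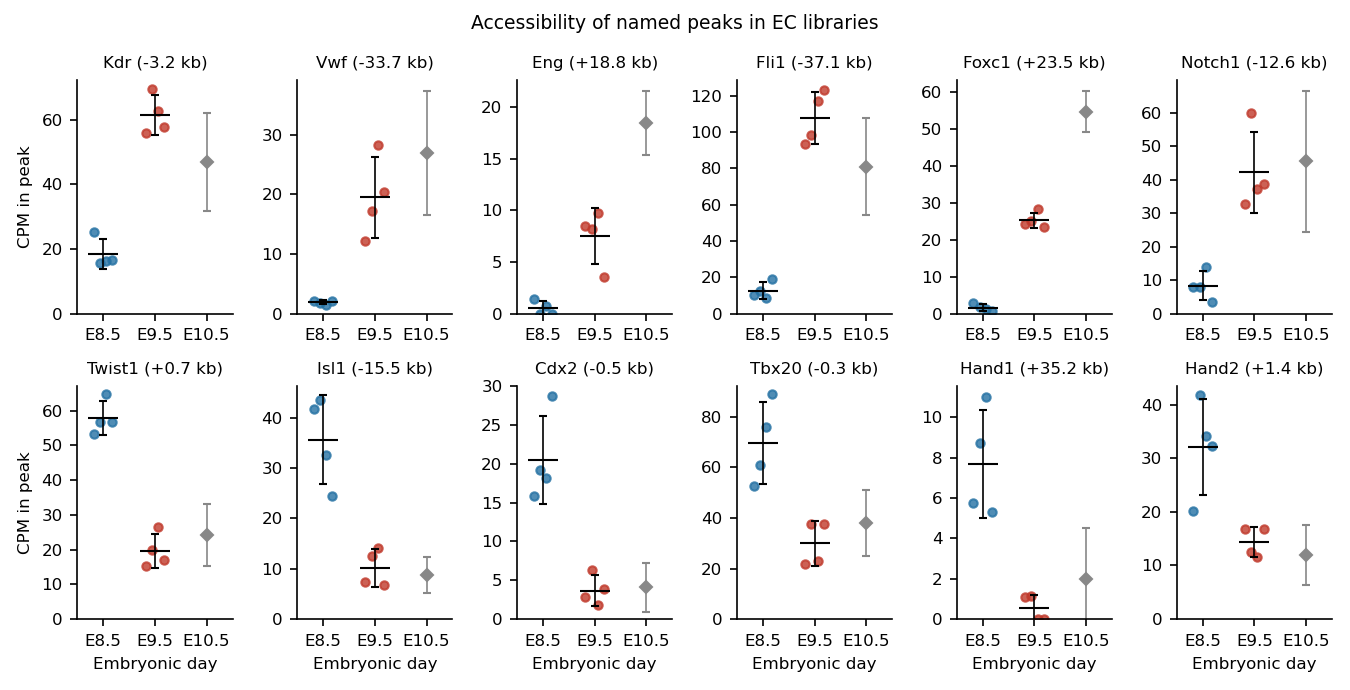
Accessibility (CPM) at 12 named peaks, titled by gene and distance from the start (kb), in EC of the 3 days. Points are libraries with the mean and SD; E10.5 is the mean and SD of 4 libraries. In the upper row all E9.5 libraries lie above all E8.5 libraries, and in the lower row all lie below. The same holds at 91.0% of all peaks called higher and 87.7% of all called lower.

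Transcription factors of endothelium gave 31 higher and 4 lower peaks of 166 tested. The shares were 18.7% and 2.41%, against 6.49% and 4.59% of all tested peaks. The smallest adjusted p of all listed windows was at Fli1, an ETS factor active from the first endothelial precursors on. The peak chr9:32311441-32312333, 37.1 kb from the start, had 10.1, 12.2, 8.71 and 19.1 CPM in the E8.5 libraries and 93.4, 98.2, 117 and 123 CPM in the E9.5 libraries, a fold of 8.41 (log2 3.07 ± 0.36, edgeR adjusted p = 1.74e-08). Every E9.5 library was several times above every E8.5 library. Of 20 tested Fli1 peaks 19 had a positive log2 fold change, 5 were called higher, and the start peak was among these (112 ± 36.1 to 183 ± 35.5 CPM, edgeR adjusted p = 0.0412). The exception, chr9:32389270-32390320, 40.8 kb toward higher coordinates, fell from 50.8 to 16.5 CPM (log2 −1.59, edgeR adjusted p = 0.00095). So the window of 1 gene held a peak that became more open and a peak that became less open.

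Foxc1, a forkhead factor of vascular and mesenchymal cells, showed the largest rise among the leading peaks of the endothelial lists. At chr13:31922117-31922785, 23.5 kb from the start, the E8.5 libraries had 2.89, 1.74, 1.14 and 0.709 CPM and the E9.5 libraries 24.2, 25, 28.3 and 23.6 CPM (log2 4.10 ± 0.54, edgeR adjusted p = 3.81e-07). Accessibility there was higher again in E10.5 EC, at 54.8 ± 5.59 CPM (SD, n = 4). All 11 tested Foxc1 peaks had positive log2 fold changes and 5 were called, the start peak included (55 ± 14 to 119 ± 16.5 CPM). Elk3, an ETS factor of angiogenesis, likewise had 17 of 17 positive and 5 called peaks. Its leading peak chr10:92798164-92800346 was broad and already open at E8.5, with 113, 93.2, 152 and 166 CPM, and reached 289, 369, 401 and 376 CPM at E9.5 (log2 1.44 ± 0.29, edgeR adjusted p = 0.000534). Sox17, an arterial SOXF factor, rose at a peak 24.7 kb from the start from 7.61 ± 4.56 to 32.5 ± 4.7 CPM (log2 2.18 ± 0.51, edgeR adjusted p = 0.00279), and E10.5 EC had 12.6 ± 3.39 CPM.

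Lyl1, a helix-loop-helix factor of endothelium and blood, had 6 higher peaks of 21, with its start peak going from 67 ± 25.7 to 164 ± 18.7 CPM (log2 1.27 ± 0.27, edgeR adjusted p = 0.00113). The flow-induced factor Klf2 had 2 higher peaks of 14, and Gata2 had 3 higher peaks and 1 lower peak of 11. Hhex rose at its start peak from 96.9 ± 37.4 to 188 ± 29 CPM (log2 0.95 ± 0.25, edgeR adjusted p = 0.007), with E8.5 EC library 3 (153 CPM) above E9.5 EC library 3 (150 CPM), and the call was lost with cyclic loess scaling (edgeR adjusted p = 0.078). Tal1, the relative of Lyl1 that acts when mesoderm turns to blood and endothelium, went the other way at its leading peak. There chr4:114767857-114770373, 40.1 kb from the start, had 98.8, 97.6, 118 and 107 CPM at E8.5 and 53.9, 42.5, 54.8 and 45.4 CPM at E9.5 (log2 -1.11 ± 0.24, edgeR adjusted p = 0.00157). The 4 E8.5 libraries lay within 97.6 to 118 CPM, all above the E9.5 libraries, as at 87.7% of all peaks called lower. HE had 93.2 ± 20.9 and 98 ± 10.7 CPM (log2 0.06 ± 0.24, edgeR adjusted p = 0.941). Another Tal1 peak, 15.4 kb from the start, was called higher. Sox18 fell at a peak 43.8 kb from its start from 8.26 ± 2.94 to 1.12 ± 0.75 CPM, a call that each of 5 libraries could end when left out (E8.5 EC 3 and E9.5 EC 1, 2, 3 and 4, edgeR adjusted p of 0.0501 to 0.0725). Mef2c rose from 132 ± 16.8 to 204 ± 16.7 CPM, a call lost without E8.5 EC library 1 or 2 or E9.5 EC library 1 or 3 (0.0599 to 0.0912). Erg had 1 tested peak in its window, with 7.01 ± 1.52 CPM at E8.5 and 3.7 ± 1.27 CPM at E9.5, and it was not called (edgeR adjusted p = 0.283). Foxo1, Klf4, Lmo2 and Sox7 had none called either. Leading peaks of Fli1, Foxc1, Sox17 and Tal1 were still called without the shallow E8.5 libraries (edgeR adjusted p of 0.000156, 5.6e-05, 0.0138 and 0.0129). Those of Elk3, Klf2, Lyl1, Hhex, Gata2, Mef2c and Sox18 were not (0.0625 to 0.415).

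**Figure D4:**
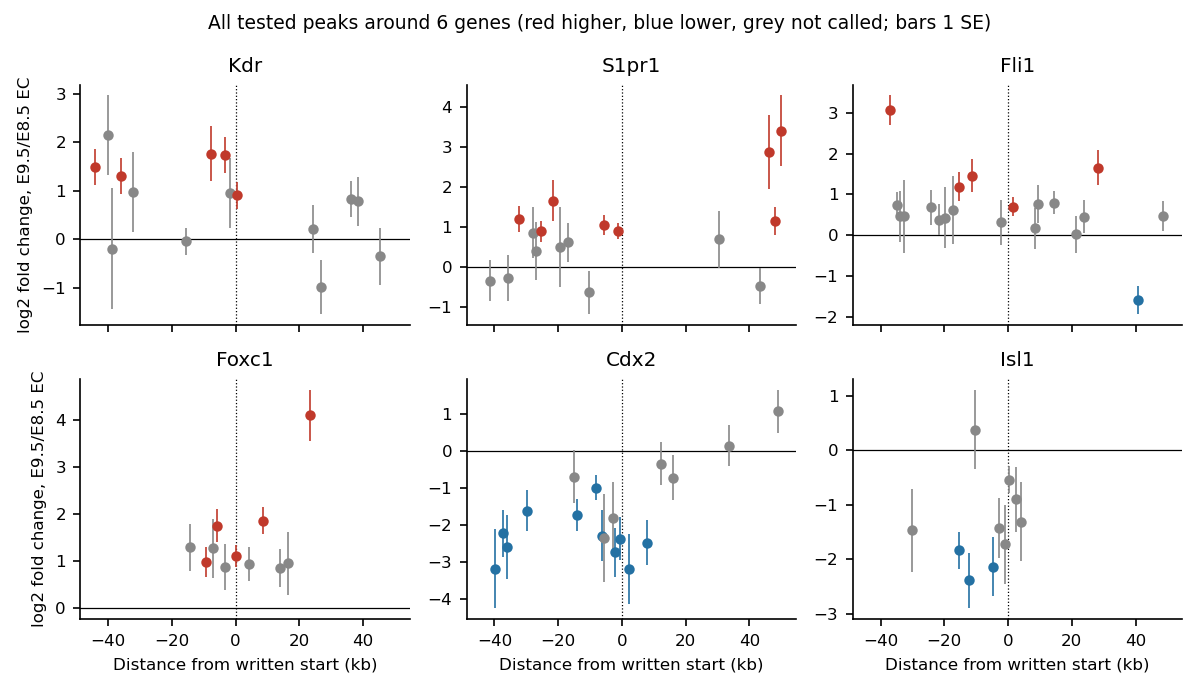
Log2 fold change between E9.5 and E8.5 EC of every tested peak within 50 kb of 6 genes, against the distance from the written start (kb, along the chromosome); bars are 1 SE, red peaks were called higher, blue lower and grey not called. The called peaks of Kdr, S1pr1 and Foxc1 are all higher, those of Cdx2 and Isl1 all lower, and Fli1 has 5 higher and 1 lower.

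Genes of arterial and venous identity and of Notch signalling, which assigns arterial fate, gave 21 higher and 5 lower peaks of 192 tested. The shares were 10.9% and 2.6%, against 6.49% and 4.59% of all tested peaks. Notch1, the receptor, had 4 higher peaks of 18. Its leading peak chr2:26345775-26347006 had 7.94, 7.84, 14 and 3.54 CPM at E8.5 and 32.8, 59.9, 37.1 and 38.7 CPM at E9.5 (log2 2.33 ± 0.40, edgeR adjusted p = 6.66e-05). The window overlaps that of Egfl7. The arterial ligand gene Dll4 rose at its start peak from 53.2 ± 4.28 to 110 ± 8.46 CPM (log2 1.04 ± 0.25, edgeR adjusted p = 0.00435) and at a peak 24.7 kb from it from 60.8 ± 28.7 to 153 ± 21.5 CPM. The second of these had 38.2, 41, 100 and 63.8 CPM at E8.5, with the shallow libraries lowest, and 127, 146, 177 and 163 CPM at E9.5. Of the Notch targets on the list, Hes1 and Hey1 had higher peaks and Hey2 had none called. Hes1 went from 167 ± 50.7 to 322 ± 24.1 CPM at its start peak (log2 0.94 ± 0.24, edgeR adjusted p = 0.00722), a call lost with cyclic loess scaling (log2 0.38, edgeR adjusted p = 0.0987) and without E9.5 EC libraries 3 and 4 (0.0521). Hey1 went from 2.29 ± 1.92 to 12.8 ± 3.53 CPM at a peak 26.9 kb from its start (log2 2.29 ± 0.54, edgeR adjusted p = 0.00282). Unc5b, a netrin receptor of arteries and sprouts, rose at chr10:60255160-60256424 from 20.9 ± 9.1 to 77.7 ± 10.2 CPM (log2 1.84 ± 0.36, edgeR adjusted p = 0.000363).

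Of the venous genes, Nr2f2 had 1 higher peak of 11 and Ephb4 2 of 10. Nr2f2, the factor that sets venous fate, went from 62.9 ± 12.7 to 124 ± 12.6 CPM at a peak 5.1 kb from its start (log2 0.97 ± 0.22, edgeR adjusted p = 0.00259), a call lost with cyclic loess scaling (edgeR adjusted p = 0.0633). Ephb4, the venous ephrin receptor, went from 70.6 ± 10.9 to 168 ± 9.13 CPM at a peak 10.7 kb from its start (log2 1.24 ± 0.28, edgeR adjusted p = 0.00193). At both genes the libraries of the 2 days did not overlap, as at 91.0% of all peaks called higher. Apln, the apelin ligand gene of sprouting endothelium, rose at chrX:45397164-45397822 from 5.38 ± 3.79 to 19.8 ± 3.15 CPM (log2 1.96 ± 0.47, edgeR adjusted p = 0.00374). Cxcr4, a chemokine receptor of arterial and migrating cells, had 3 lower peaks of 6, all more than 40 kb from its start. The first of them had 31.7, 13.9, 6.82 and 6.38 CPM at E8.5 and 1.4, 3.81, 0 and 0.703 CPM at E9.5, so that most of its E8.5 mean came from the shallow library 1, and without libraries 1 and 2 it was not called (edgeR adjusted p = 0.205). Calls at Jag1 (higher), Jag2 (lower), Bmx (lower) and Nrp2 (higher) each ended when single libraries were left out. Adjusted p in edgeR reached 0.115 for Jag1 without E9.5 EC library 3, 0.138 for Jag2 and 0.097 for Bmx without E9.5 EC library 4, and 0.0524 for Nrp2 without E9.5 EC library 2. Gja4, Gja5, Nrp1 and Acvrl1 had no called peak. Only the leading peaks of Notch1 and Apln among these lists' genes were still called without the shallow E8.5 libraries (edgeR adjusted p of 0.0118 and 0.0326).

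Early mesoderm and posterior patterning genes gave 3 higher and 12 lower peaks of 130 tested. The shares were 2.31% and 9.23%, against 6.49% and 4.59% of all tested peaks. The count of 12 in edgeR became 5 to 9 when 1 library was left out (5 without E9.5 EC library 1), 3 without the shallow E8.5 libraries and 0 without E9.5 EC libraries 3 and 4. Of the 12, 11 lay in the window of Cdx2, the homeobox factor of posterior mesoderm and hindgut that sets HOX expression. Cdx2 had 18 tested peaks, of which 11 fell and 0 rose, the most lower peaks of any listed gene. At the start peak chr5:148117764-148119210 the E8.5 libraries had 15.9, 19.2, 18.2 and 28.7 CPM and the E9.5 libraries 2.79, 6.29, 1.77 and 3.87 CPM (log2 -2.38 ± 0.58, edgeR adjusted p = 0.00426). The leading peak chr5:148116444-148117302, 2.1 kb away, had 13, 8.71, 15.1 and 16 CPM at E8.5 and 3.1, 1.53, 3.53 and 0 CPM at E9.5 (log2 -2.75 ± 0.66, edgeR adjusted p = 0.00374). All 4 E8.5 libraries carried signal at both peaks, and E10.5 EC was low too, with 2.8 ± 1.02 CPM at the leading peak. The 11 peaks spanned from 39.9 kb on the side of lower coordinates to 8.0 kb on the other side. The leading peak was called without the shallow E8.5 libraries (edgeR adjusted p = 0.0202) and not without E9.5 EC libraries 3 and 4 (0.0538). Of the 11 Cdx2 calls the counts were 3 and 0 in these fits, 7 with cyclic loess scaling, and 5 to 9 with 1 library left out.

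The remaining lower peak of early mesoderm lies in the windows of both Mesp1 and Mesp2, neighbouring factor genes of the first mesoderm. It went from 11.3 ± 1.99 to 3.71 ± 2.35 CPM (log2 -1.50 ± 0.49, edgeR adjusted p = 0.0352). This call was lost when any of 6 libraries was left out (E8.5 EC 1, 2 and 3 and E9.5 EC 1, 3 and 4, edgeR adjusted p of 0.0595 to 0.14). The higher peaks were 1 each in the windows of Nodal, Fgf8 and Lefty2, all 40.9 to 47.4 kb from the gene. The peak near Nodal rose from 5.05, 5.23, 16.3 and 15.2 CPM at E8.5 to 32.3, 36.4, 27.4 and 29.2 CPM at E9.5 (log2 1.51 ± 0.41, edgeR adjusted p = 0.0102). The call near Fgf8 ended without E8.5 EC library 1 (edgeR adjusted p = 0.0509), and that near Lefty2 without E8.5 EC library 1 or 2 or E9.5 EC library 2 or 4 (0.0582 to 0.178). Without the shallow E8.5 libraries none of the 3 was called (edgeR adjusted p of 0.318, 0.362 and 0.559). Among the other 12 genes of the list, which include Mixl1, Eomes, Tbx6, Msgn1, Lhx1, Evx1, Cdx4, Etv2 and Pdgfra, none had a called peak.

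Lateral and cardiac mesoderm genes gave 1 higher and 8 lower peaks of 87 tested, at 5 genes lower. The shares were 1.15% and 9.2%, against 6.49% and 4.59% of all tested peaks. Twist1, a helix-loop-helix factor of mesoderm and mesenchyme, fell at its start peak chr12:34641483-34643963. The E8.5 libraries had 53.4, 56.6, 64.7 and 56.7 CPM and the E9.5 libraries 15.4, 19.8, 26.5 and 16.9 CPM (log2 -1.60 ± 0.31, edgeR adjusted p = 0.000376), with 24.1 ± 8.93 CPM in E10.5 EC. The E8.5 libraries were close to each other and all lay above the E9.5 libraries, as at 87.7% of all peaks called lower. Isl1, the LIM-homeobox factor of second heart field progenitors, had 3 lower peaks of 10. The leading one, chr13:117083555-117085378, 15.5 kb from the start, had 41.8, 43.6, 32.6 and 24.5 CPM at E8.5 and 7.3, 12.6, 14.1 and 6.68 CPM at E9.5 (log2 -1.83 ± 0.34, edgeR adjusted p = 0.000168). The other 2 fell by 2.39 and 2.14 log2 and lie between it and the start. Tbx20, a T-box factor of heart and lateral mesoderm, fell at its start peak from 69.7 ± 16.1 to 30 ± 8.88 CPM (log2 -1.21 ± 0.29, edgeR adjusted p = 0.00352), with 52.7, 61, 76.1 and 89 CPM at E8.5 and 21.7, 37.8, 23 and 37.6 CPM at E9.5.

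Hand2, which acts in heart and limb mesoderm, fell at its start peak from 32.1 ± 8.95 to 14.4 ± 2.8 CPM (log2 -1.13 ± 0.33, edgeR adjusted p = 0.0182). Its call was lost without E8.5 EC library 2 or 3 or E9.5 EC library 2 (0.0501 to 0.0801). Hand1, its relative in extraembryonic and lateral mesoderm, fell at a low peak 35.2 kb from the start, from 7.7 ± 2.66 to 0.558 ± 0.644 CPM, a call lost without E9.5 EC library 4 (edgeR adjusted p = 0.0558). The exception in the list was a peak in the window of Tbx1, chr16:18601579-18603053, which had 11.5, 20.9, 42.8 and 36.2 CPM at E8.5 and 109, 117, 106 and 154 CPM at E9.5 (log2 2.07 ± 0.33, edgeR adjusted p = 1.46e-05). Gata4, Nkx2-5, Tbx3, Foxf1, Foxc2, Bmp4 and Meox1 had no called peak. Leading peaks of Twist1, Isl1, Tbx20 and Tbx1 were still called without the shallow E8.5 libraries (edgeR adjusted p of 0.00762, 0.0237, 0.0109 and 0.0187), and those of Hand1 and Hand2 were not (0.0745 and 0.0873). Without E9.5 EC libraries 3 and 4 Tbx20, Hand1 and Hand2 were not called (0.0506, 0.137 and 0.123).

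Genes of the early embryonic stage (Lin28a, Dnmt3b, Sall4, Pou5f1, Utf1) had a median log2 fold change of −0.64 over 38 tested peaks, with 0 called in edgeR in either direction. At an unadjusted p under 0.05, 0 were higher and 4 lower, and DESeq2 called 0 higher and 1 lower. The label EC was checked against markers. The highest peaks near 7 endothelial markers had means of 7.01 to 113 CPM at E8.5 and 3.70 to 237 CPM at E9.5, and the summed CPM of the 83 tested peaks in their windows was 1070 to 1530 in the E8.5 and 1780 to 2250 in the E9.5 libraries. The low end of these endothelial ranges is the single Erg peak. The ranges overlapped with those of markers of other cells. The highest peaks near blood genes had means of up to 76.2 CPM at E8.5 and 130 CPM at E9.5. Near epithelial, neural and kidney genes the means reached 62.0 and 80.4 CPM, and near smooth muscle genes 32.3 and 45.2 CPM. The summed CPM covers a different number of peaks in each marker set, so the sums do not compare the sets. Markers of other cells moved as follows. Around 4 blood genes 3 of 39 peaks rose (7.69%, near the 6.49% of all tested peaks) and 0 fell, with sums of 308 to 533 CPM at E8.5 and 504 to 576 CPM at E9.5. The blood peaks that rose were 1 each near Gata1 (53.1 ± 11.4 to 102 ± 18.2 CPM), Spi1 (76.2 ± 13.1 to 130 ± 11 CPM) and Hba-a1 (1.16 ± 0.512 to 6.93 ± 4.38 CPM). Gata1 and Spi1 were not called without the shallow E8.5 libraries (edgeR adjusted p of 0.18 and 0.32) or with cyclic loess scaling (0.052 and 0.192), and Spi1 was lost without E8.5 EC library 1 or 2 (0.0515 and 0.0587). Around 3 smooth muscle genes 0 of 12 peaks were called (edgeR; 0 higher and 2 lower at an unadjusted p under 0.05, and 0 by DESeq2), with sums of 80.2 to 139 and 109 to 125 CPM. Around 6 epithelial, neural and kidney genes 1 of 30 rose (Wt1) and 2 fell (Wt1 and Pax6), with sums of 281 to 318 and 234 to 274 CPM. The Pax6 call was lost when any 1 of E8.5 EC libraries 2 and 4 and E9.5 EC libraries 1, 2 and 4 was left out (edgeR adjusted p of 0.0611 to 0.175). Their part in the results at the endothelial and mesodermal genes was not tested.

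The same days were then compared in HE, the endothelium that gives rise to blood. The HE means do not enter the EC comparison. The HE libraries do enter the shared fit that sets the filter, the scaling and the spread. EC and HE also share days and tissue labels, so the 2 comparisons are not independent. In HE 1433 peaks (2.14%) were called, 599 higher (0.893%) and 834 lower (1.24%). At the 4355 peaks that rose in EC the median HE log2 fold change was 0.33, and 71.1% had a positive HE value, against 48.8% of all tested peaks. In HE, 187 of them also rose and 20 fell. At the 3079 peaks that fell in EC the HE median was −0.66, with 83.8% negative, and 250 fell and 3 rose. Whether the change differed between EC and HE was tested directly. It did at 1004 peaks (1.5%), with EC above HE at 815 (1.21%) and below at 189 (0.282%). Of the peaks that rose in EC 633 were among the 815, and of those that fell 115 were among the 189, which is a description, since these peaks were picked on the EC comparison that the test shares. The count of 1004 changed with the libraries used. It was 6 without the shallow E8.5 libraries of both populations and 44 without E9.5 EC libraries 3 and 4 and E9.5 HE library 4. With 1 library left out it was 437 to 1090. These fits hold fewer libraries, and the cause of the drop was not tested.

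The median of the peaks that rose in EC was 19.5 CPM in E8.5 HE and 22.1 CPM in E9.5 HE, against 10.0 and 30.7 CPM in EC. In the endothelial windows 10 of 607 peaks rose in HE and 4 fell, and the change differed between EC and HE at 18 peaks, 17 with EC above HE. In the mesodermal windows 1 of 217 rose and 4 fell in HE, and the change differed at 4. At the Fli1 peak HE went from 18.1 ± 4.12 to 33.7 ± 5.29 CPM (log2 0.91 ± 0.33, edgeR adjusted p = 0.136), a smaller change than in EC (difference 2.16 ± 0.48 log2, edgeR adjusted p = 0.00949). At the Kdr peak HE went from 29.2 ± 9.26 to 23.2 ± 5.75 CPM (log2 -0.36 ± 0.37, edgeR adjusted p = 0.702), and the difference from EC was 2.10 ± 0.53 log2 (edgeR adjusted p = 0.0249). The HE mean was thus above the EC mean at E8.5 and below it at E9.5, an order that was not tested. The Isl1 peak had 24.8 ± 5.39 and 24.6 ± 1.92 CPM in HE, and the difference was -1.84 ± 0.46 log2 (edgeR adjusted p = 0.0232).

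Some peaks changed in both populations. Foxc1 rose in HE at its leading peak from 4.12 ± 3.05 to 23.6 ± 4.83 CPM (log2 2.30 ± 0.42, edgeR adjusted p = 0.000601), and the difference from EC was 1.80 ± 0.71 log2 (edgeR adjusted p = 0.208). Eng rose in HE from 2.84 ± 1.74 to 18.2 ± 1.91 CPM (log2 2.69 ± 0.46, edgeR adjusted p = 0.000241). Twist1 fell in HE from 45.9 ± 5.25 to 22.1 ± 6.08 CPM (log2 -1.07 ± 0.30, edgeR adjusted p = 0.0429). Notch4, the endothelial Notch receptor, rose by nearly the same amount at a peak 40.0 kb from its start, by 0.89 ± 0.23 log2 in EC and 0.91 ± 0.23 log2 in HE (edgeR adjusted p of 0.00668 and 0.0191; difference -0.01 ± 0.32). The EC call at Notch4 was lost with cyclic loess scaling (log2 0.33, edgeR adjusted p = 0.14) and without E9.5 EC libraries 3 and 4 (0.111). At the Cdx2 start peak the HE change was -0.72 ± 0.55 log2 (edgeR adjusted p = 0.582), and the difference from EC was -1.66 ± 0.80 log2 (edgeR adjusted p = 0.343), so that a fall in HE was neither called nor shown to differ from that in EC.

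**Figure D5:**
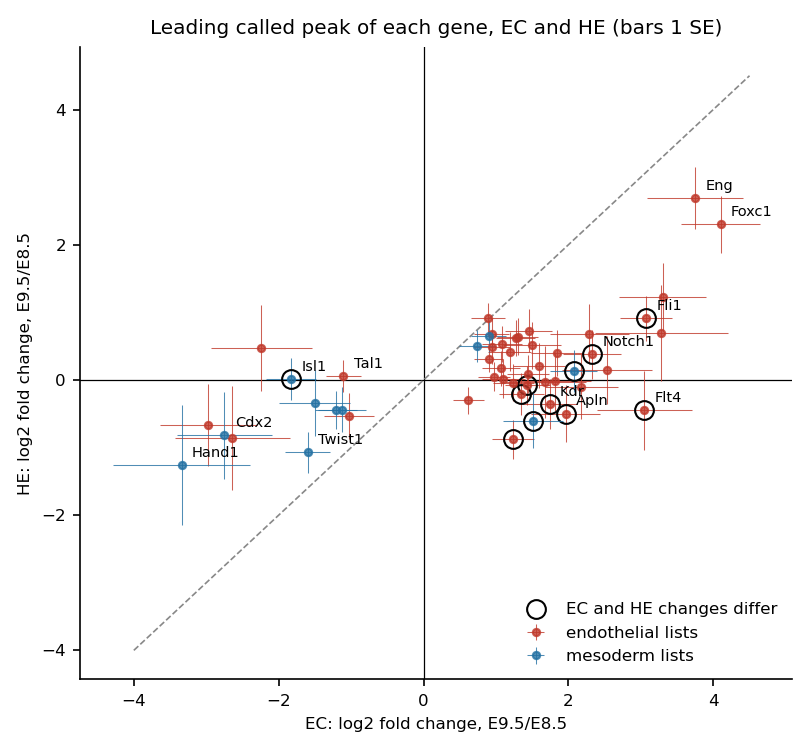
Log2 fold change from E8.5 to E9.5 in EC (x) and in HE (y) at the leading called peak of each listed gene, with 1 SE; rings mark peaks whose changes differ (edgeR adjusted p under 0.05) and the dashed line marks equal change. Most endothelial peaks (red) lie right of the vertical axis and near 0 in HE, while Eng and Foxc1 rise in both populations.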

How the data were processed

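The deposited ATAC-seq table holds counts for 76018 peaks in 35 libraries of 9 groups, named in the file headers. They were taken to be raw read counts, which the headers do not state. The submitters' processing notes name the build mm9 and DiffBind 1.14.6, MACS2 2.0.1, Bowtie 1.0.0, Trim Galore 0.3.1, bedtools 2.17.0, SAMtools and deepTools as tools, with no role or order. Peaks of 55 to 8256 bases share 1 set over all libraries. Libraries were amplified with 13 PCR cycles, per the labels' protocols, and no molecular identifiers are given, so counts are not independent molecules. Even counts were in excess, at 54.1% to 78.2% of the counts from 10 to 49 in the EC and HE libraries. Coordinates are printed as in the table, whose counting origin (0 or 1) no source used here states.

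Counts were fitted with edgeR 4.0.16 (R 4.3.3), with filterByExpr by group (67108 peaks kept, 8910 removed), TMM scaling, 1 mean per group and a two-sided quasi-likelihood test with Benjamini-Hochberg adjustment over all tested peaks, called at 0.05. The fit used 34 samples and 25 residual degrees of freedom, because libraries 2 and 3 of pre-HSC I agreed within sampling noise (chi-square per degree of freedom 0.4912, against at least 2.404 for other pairs) and were counted as 1. SE is the log2 fold change divided by the root of F. CPM uses TMM library sizes. The fit was checked on simulated data with 1 dispersion for all peaks and no shift with peak level. That check does not cover the dependence on level or on single libraries seen here.

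No mm9 annotation was used. Gene starts were written from recall to about 1 kb, and a start was kept if it lay within 50 kb of the place where the spacing of its neighbouring genes in a RefSeq table of GRCm38.p6 best met the peaks. This check was to use start sites, which kept 46 of 106 genes, and was widened after the data were seen to both ends of protein-coding genes, which kept 103 of 106. No coordinate of that table placed a peak. A gene's start peak is the peak of smallest p among those that span or lie within 1 kb of its start. Named peaks are, in each direction, the 10 smallest adjusted p among called peaks of at least 2-fold change without overlap, and for each listed gene the peak of smallest p within 50 kb and the highest peak. Genes and lists were chosen with earlier results of these data known. Other called peaks of named windows were described after their values were seen. Alternatives were RLE, total-count and cyclic loess (limma 3.58.1) scaling, no filter, only the compared groups, a replicate block, thinning, DESeq2 1.42.0, windows of 25 and 100 kb, and libraries left out. Leaving out the window of Cdx2 was added after seeing the data.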

Additional observations from a re-analysis of the deposited data

Results flagged for a closer look

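At several named peaks the change from E8.5 to E9.5 differed between EC and HE (edgeR interaction test, adjusted p under 0.05). These peaks were picked on the EC comparison, which the test shares. Some lay at the threshold, such as Emcn and Pecam1 (edgeR adjusted p of 0.0494 and 0.0498). Over all peaks the count of such differences fell from 1004 to 6 without the shallow E8.5 libraries. It fell to 44 without the E9.5 libraries high at the X peak. Whether each difference below was still called in those fits is not given here. Among the endothelial genes the EC change exceeded the HE change at Flt4 by 3.49 log2, Apln by 2.46, Fli1 by 2.16, Kdr by 2.10, Cldn5 by 2.10 (chr16:18773375-18774661), Notch1 by 1.95, Emcn by 1.56 and Pecam1 by 1.51. In mesodermal windows it exceeded it at Nodal by 2.11 and Tbx1 by 1.94, and at Isl1 the difference was −1.84. Among the strongest higher peaks the difference was 2.98 at chr5:106054638-106055573, 2.55 at chr7:105720479-105722469, 2.10 at both chr10:74826194-74828242 and chr10:74913761-74914653, 1.95 at chr15:25718931-25719837, 1.90 at chr16:87715887-87717359, 1.75 at chr5:46317016-46317906 and 1.70 at chr2:115135488-115136718. Among the strongest lower peaks it was −3.29 at chr8:36165054-36165776, −2.69 at chr17:91865735-91866771, −2.67 at chr1:100206312-100207070 and −2.64 at chr8:36166922-36168169.

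In 5 of 154 groups of 4 libraries checked, 1 library lay far from the other 3, with a gap to the nearest, as a share of the group's range, above Dixon's critical value. Chance gives about 1 in 20. The gaps were 0.887 at chr10:74826194-74828242, 0.898 at the Kdr peak chr5:76370371-76371292 and 0.952 at the Hhex start peak in the E8.5 EC libraries, and 0.906 at the Sox18 peak and 1.0 at chr1:140194397-140195392 in the E9.5 EC libraries.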

How the results depend on the processing

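Of 1339 values of the 75 named peaks under the alternatives, 1210 stayed on their side of the threshold, 129 lost their call and 0 changed sign, a direction that picking called peaks fixes. The EC count of 7434 was 7720 with RLE, 7677 with total counts, 6617 with loess, 7460 without the filter, 10497 with DESeq2 and 5123 after thinning. Fitting only the compared groups gave 12054 EC, 7106 HE and 4287 interaction calls. Without the shallow E8.5 libraries the counts were 1529, 101 and 6, and without the E9.5 libraries high at the X peak 3166, 337 and 44. DESeq2 gave 3497 HE and 2553 interaction calls, and thinning left 575 interaction calls. Leaving out 1 library gave 4700 to 6850 EC, 432 to 1017 HE and 437 to 1090 interaction calls, the lowest without E8.5 EC 2, E9.5 HE 4 and E8.5 EC 2. Moves of these totals by over 1.5-fold came without E8.5 EC 1 or 2 (EC), every HE library but E8.5 HE 3 and 4 (HE), and E8.5 EC 1 or 2, E8.5 HE 1 or 2, E9.5 EC 2 or E9.5 HE 3 or 4 (interaction). The share of EC calls that were higher was 61.6% to 67.6% with 1 library left out, against 58.6%. The difference in the share of counts in the top 10% of peaks was 6.99 to 8.86 with 1 library left out. The causes were not tested, beyond the fewer libraries these fits hold. Endothelial windows of 25 and 100 kb gave 75 and 145 higher and 2 and 18 lower peaks, and mesodermal ones 1 and 14 higher and 15 and 25 lower. With the replicate block, added to the fit of only the compared groups, there were 10338 EC, 7783 HE and 4143 interaction calls. Pairing by replicate number was checked on each library's deviations from the mean of its own group (log2 CPM), not on the libraries themselves. Between same-numbered EC libraries of the 2 days these deviations correlated at −0.0213 to −0.00757. None correlated best with its own number, so the numbers were not taken to pair the libraries. Deviations of EC and HE libraries of the same day and number correlated at 0.0294 to 0.17, not all over 0.1. By these deviations 3 of the 4 pairs at E9.5 and 1 of the 4 at E8.5 matched best by number, a hint that bears on the interaction. At E8.5, EC 1 and 2 both matched HE 1 best, EC 3 matched HE 4 and EC 4 matched HE 3. At E9.5, EC 4 matched HE 3. Every best match thus lay within numbers 1 and 2 or within 3 and 4. Whether the 4 libraries of a day form 2 such blocks was not tested. Without the window of Cdx2, an alternative chosen after seeing the data, the lower peaks were 1 in early mesoderm and 9 in both mesoderm lists. Depth limits the lowest peaks most: E8.5 EC 2 holds 1004036 counts, and a peak at 0 there was not detectable at that depth.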
